A study of Mus musculus with 6 samples.

Results

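The miR-379 to miR-410 cluster is a run of small hairpins inside the imprinted Dlk1-Dio3 domain of mouse chromosome 12, and its long host RNA is annotated in part as Mirg. The members were chosen by name: every listed arm of 38 miRNA names was taken, whatever its values. The deposited tables held 41 such mature miRNAs among 685, from 30 of the 38 names, with 17 from the 5p arm and 24 from the 3p arm. The other 8 names, miR-299b, miR-1193, miR-654, miR-539, miR-544, miR-377, miR-1197 and miR-3072, are not analysed here. The libraries came from N2a, a mouse neuroblastoma line, kept in medium with 2% serum and 10 µM retinoic acid over 96 h to give neuron-like cells. In the treated group 5 µM RSL3 was then present for 24 h. This compound blocks the lipid peroxide reductase GPX4 and drives ferroptosis, an iron-dependent form of cell death. The control group received the solvent DMSO for the same time, and both groups had 3 libraries and no genetic change named in the labels. The comparison asks which cluster miRNAs differ after RSL3. The labels do not say whether replicate libraries came from separate cultures, so the spread between them may be technical.

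In imprinted domains only 1 parental copy is read. Here the noncoding RNAs and all their miRNAs come from the maternal chromosome, while the protein-coding genes Dlk1, Rtl1 and Dio3 are read from the paternal one. The cluster is found in placental mammals only, is expressed most in brain, and its long precursor RNA is cut into many hairpins, each of which can give a 5p and a 3p product. In neurons its transcription follows activity, and members such as miR-134 and miR-485 act at synapses.

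The plus-strand hairpins matched in RefSeq's table for GRCm38.p6 numbered 29 and ran from 109709060, the start of miR-379, to 109743795, the end of miR-410, on chromosome 12, a span of 34.7 kb. GENCODE's Mirg model (109729764 to 109749460) covered the last 11 of them, 4 within an intron and 7 in or at the edge of an exon. The other 18 lay upstream of that model, outside any annotated host gene. Mature sequences were found in the RefSeq table for 38 members, and the names miR-376c-3p, miR-485-5p and miR-487b-3p had no entry.

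The most abundant members and those with the smallest p-values are printed here with the seed, bases 2 to 8 from the 5′ end, in capitals, since the seed selects the target mRNAs.
miR-381-3p: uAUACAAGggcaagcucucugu
miR-300-3p: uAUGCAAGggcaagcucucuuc
miR-379-5p: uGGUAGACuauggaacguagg
miR-541-5p: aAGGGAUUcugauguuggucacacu
miR-382-3p: uCAUUCACggacaacacuuuuu
miR-329-5p: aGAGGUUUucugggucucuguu
miR-411-5p: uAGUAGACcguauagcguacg
miR-409-3p: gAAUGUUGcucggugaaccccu
miR-380-5p: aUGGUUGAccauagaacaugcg
miR-758-3p: uUUGUGACcugguccacua
miR-379-3p: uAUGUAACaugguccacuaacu
miR-411-3p: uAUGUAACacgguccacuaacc
The 38 sequences held 37 different seeds. The single shared one, AUGUAAC, belonged to miR-379-3p and miR-411-3p, from neighbouring hairpins. Written from miR-411-3p to miR-379-3p and counted from the 5′ end, these differed by C10U and C22U. The 2 most abundant members were nearly the same outside the seed: from miR-381-3p to miR-300-3p the changes were A4G, G21U and U22C, and A4G lies in the seed. From miR-495-3p to miR-543-3p they were A6U, A7U, A9G and U10C. Reads with errors could pass between such pairs, and how the authors treated reads that match several miRNAs is not given in the sources used here.

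Seeds were also shared outside the cluster. The next pairs show a cluster member followed by a listed miRNA of another locus that would select the same seed matches.
miR-329-3p: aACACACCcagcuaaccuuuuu
miR-362-3p: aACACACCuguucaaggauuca
miR-410-3p: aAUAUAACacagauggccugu
miR-344d-3p: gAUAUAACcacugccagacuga
The level of miR-362-3p was 20.8 ± 7.53 CPM under DMSO and 27.0 ± 5.26 CPM under RSL3 (SD, n = 3 per group, as in all values below). For miR-344d-3p it was 2834 ± 136.4 and 3234 ± 385 CPM, far above miR-410-3p at 15.0 ± 2.79 and 14.7 ± 5.54 CPM. Another relative, miR-344e-3p, stood at 39.6 ± 9.62 and 33.6 ± 1.92 CPM. None of these 3 outside miRNAs passed in limma (adjusted p = 0.41, 0.43 and 0.60).

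All values are the authors' CPM, a read count per mature miRNA scaled to the library, and 1 read was worth 0.157 to 0.314 CPM. The listed miRNAs held 3406276 to 6058006 reads per library, and the cluster 11106 to 24110 of them. A mature miRNA gives 1 short read, so levels need no correction for length. Counting error is small for the abundant members and large for the 22 whose mean was under 10 CPM, and it was as low as 1 read in a library. Of the neuron markers all 6 were listed, led by miR-218-5p, miR-9-5p and miR-128-3p. Their summed levels were 21361 to 25448 CPM under DMSO and 19524 to 24896 CPM under RSL3. The single markers went both ways. The log2 fold change was 0.39 for miR-9-5p, 0.25 for miR-124-3p and 0.12 for miR-138-5p. It was -0.02 for miR-9-3p, -0.10 for miR-128-3p and -0.28 for miR-218-5p. The 4 fibroblast and smooth muscle markers summed to 35246 to 38417 and 35941 to 37140 CPM. Most of that was miR-143-3p, with a log2 fold change of -0.0011, and the others had negative values: -0.52 for miR-145a-5p, -0.34 for miR-199a-3p and -0.24 for miR-214-3p. The smallest adjusted p of all listed markers in limma was 0.063, for miR-145a-5p. Single markers without overlap between groups were miR-23a-3p and miR-126a-3p on the higher side. On the lower side they were miR-145a-5p, miR-126a-5p and the muscle marker miR-133a-3p. Of all tested miRNAs 12.3% did not overlap on the higher side and 12% on the lower side. Of 6 blood markers 3 were listed, at 64.6 to 91.3 and 65.3 to 124 CPM, and of 6 epithelial ones 4, at 398 to 462 and 362 to 450 CPM. The 3 muscle markers summed to 105 to 193 and 68.8 to 129 CPM. Their log2 fold changes were -0.41 for miR-1a-3p, which led the sum, -0.95 for miR-133a-3p and -0.34 for miR-206-3p. The level of miR-133a-3p was only 4.33 ± 1.24 and 1.85 ± 1.13 CPM (limma adjusted p = 0.11). The liver marker miR-122-5p was at 1.41 to 3.54 and 2.41 to 5.96 CPM. The 1 listed of 7 pluripotency markers was at 0.222 to 1.57 and 0.508 to 2.21 CPM. The 4 glial markers summed to 796 to 892 and 969 to 1153 CPM and the 2 endothelial ones to 642 to 701 and 781 to 907 CPM, so these 2 sums were higher in RSL3 libraries without overlap. Each sum was carried by 1 miRNA. Among the glial markers the log2 fold change was 0.38 for miR-23a-3p, 0.23 for miR-219a-5p, 0.05 for miR-219a-2-3p and -0.06 for miR-338-3p. The level of miR-219a-5p was only 3.19 ± 1.08 and 3.82 ± 0.724 CPM. For the endothelial pair the log2 fold change was 0.38 for miR-126a-3p but -0.47 for miR-126a-5p. The part of these markers in the results on the cluster was not tested.

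All members together made up 0.283% to 0.400% of a library's signal. Its summed level was 3778, 2800 and 3453 CPM under DMSO libraries 1 to 3 and 2823, 4278 and 3063 CPM under RSL3 1 to 3. The highest value was in RSL3 library 2 and the lowest in DMSO library 2, so the groups overlapped widely. The group means were 3344 ± 498 and 3388 ± 780 CPM, a ratio of 1.01, smaller than the spread between replicates. In bulk RNA, fewer cells that make a miRNA and less of it per cell cannot be told apart.

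**Figure D1:**
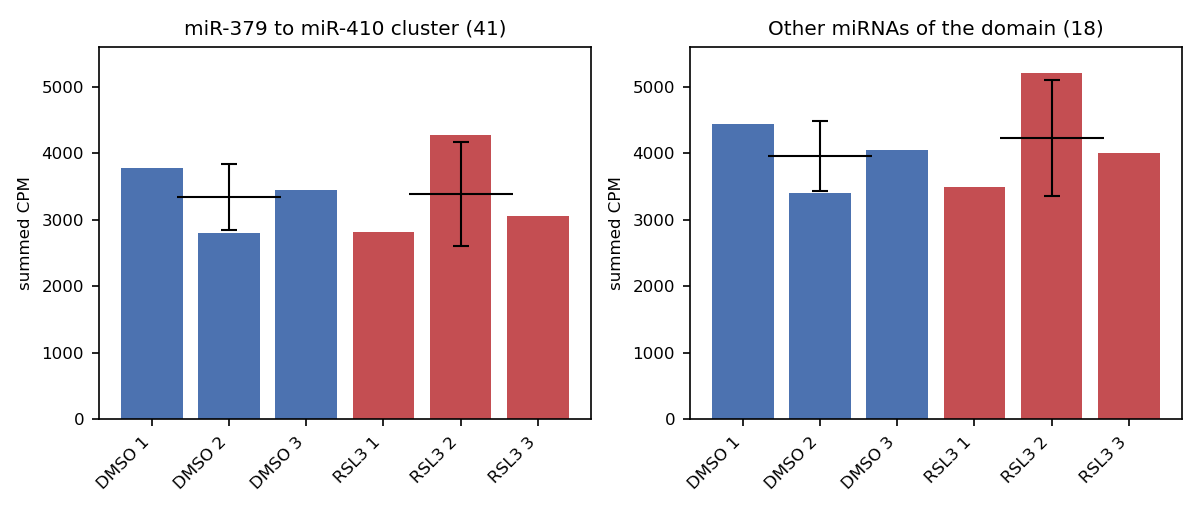
Bars give the summed CPM of the 41 cluster miRNAs (left) and of 18 other miRNAs of the domain (right) in each library, and black marks give the group mean ± SD (n = 3). In both panels RSL3 library 2 is the highest, and the 2 groups overlap.

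A single member carried most of this sum. The level of miR-381-3p was 2452, 1792 and 2332 CPM under DMSO and 1805, 2710 and 1912 CPM under RSL3. It made up 62.4% to 67.5% of the cluster's signal and ranked 50 among all 685 listed miRNAs. Its log2 fold change, on log2(CPM + 1) as are all below, was -0.04 ± 0.16 (SE, limma adjusted p = 0.90), and the interval from -0.40 to 0.31 covers both directions. Without 1 library at a time this value turned positive in 4 of 6 cases, up to 0.07.

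Next in level came 4 members above 100 CPM. The neighbour and near-relative miR-300-3p stood at 215, 164 and 188 CPM under DMSO and 191, 304 and 184 CPM under RSL3, where library 2 alone was high. The first hairpin's guide, miR-379-5p, was at 203, 136.5 and 120 CPM and then 147, 234 and 227 CPM. A pair of RSL3 libraries lay above all DMSO libraries and the other one within their range. For miR-541-5p the values were 176, 147 and 167 CPM under DMSO and 131, 179 and 131 CPM under RSL3, with the pair of lowest values in RSL3. The 3p product of miR-382 was at 141, 118 and 142 CPM and then 106, 144 and 101 CPM, again with the pair of lowest values in RSL3 libraries. Their log2 fold changes were 0.23, 0.41, -0.16 and -0.20 in this order, and none passed in limma (adjusted p = 0.54, 0.32, 0.60 and 0.53).

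**Figure D2:**
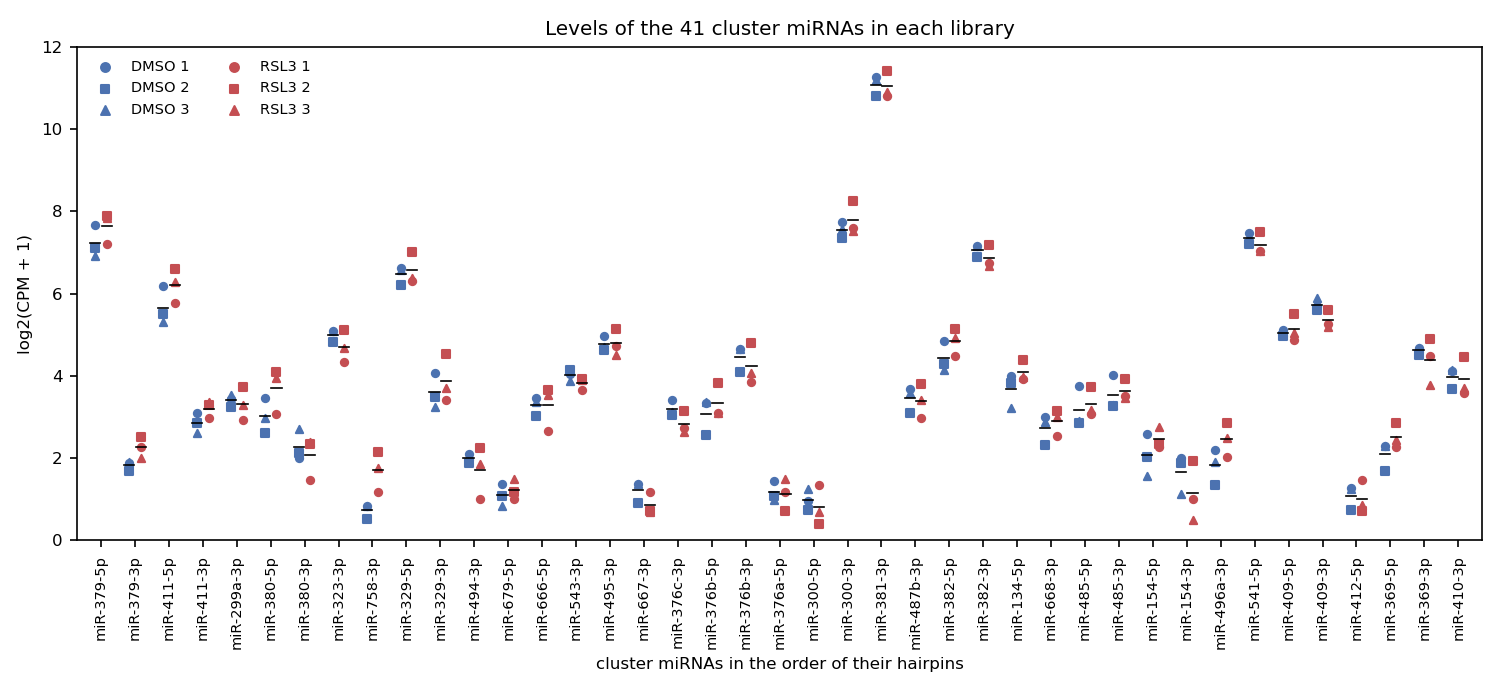
Each of the 41 cluster miRNAs is placed in the order of its hairpin along the cluster, with log2(CPM + 1) of each library as a point and group means as black lines. The 3p arm of miR-381 stands far above the rest, and RSL3 library 2 (red squares) is the highest point for 27 of the 41 members.

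Levels were also set against position. Over 29 hairpins Spearman's rho between start and the level of the stronger arm was -0.04, a description over hairpins that share the same libraries. A total of 5 members had a mean above 100 CPM, 14 between 10 and 100 CPM and 22 below. The median member had a mean level of 9.95 CPM, against 23.9 CPM for the median of all listed miRNAs.

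No cluster miRNA passed the test across all miRNAs. Of the 41 members 40 reached 1 CPM in at least 3 libraries and were tested, and miR-300-5p was set aside at 0.940, 0.666 and 1.38 CPM under DMSO and 1.53, 0.314 and 0.602 CPM under RSL3. In limma 0 of 40 passed in either direction at an adjusted p of 0.05, where 0.601% of all 666 tested miRNAs passed as higher and 0.15% as lower. The members' adjusted p-values ran from 0.10 to 0.99. Read-count tests on the recovered reads called 0 members as well. In edgeR the smallest adjusted p was 0.090, and 0.601% of all miRNAs passed as higher and 0.3% as lower. In DESeq2 the smallest was 0.13, and 2.55% of all miRNAs passed as higher and 2.85% as lower. There 16 members had no adjusted p and could not be called. They include miR-758-3p, the member with the smallest p in limma. At an unadjusted p under 0.05 in limma, 3 members were higher and 1 lower, 7.5% and 2.5% of those tested, against 8.86% and 8.41% of all miRNAs. The counts were the same in edgeR, against 8.86% and 8.11%, and in DESeq2, against 7.21% and 7.06%. The groups did not overlap in 2 members on the higher side and 1 on the lower side, against 12.3% and 12% of all miRNAs. The members' median log2 fold change was 0.06, with 22 positive and 18 negative, and that of all tested miRNAs was 0.00134, with 50.2% positive and 49.8% negative. The members' median was 0.00335 in plain CPM and 0.10 with median centring.

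The members with the smallest p-values on the higher side came from hairpins at the start of the cluster. The lowest p belonged to miR-758-3p, at 0.784, 0.444 and 0.787 CPM under DMSO and 1.27, 3.45 and 2.41 CPM under RSL3. The groups did not overlap, yet the values rest on 5, 2 and 4 reads in DMSO and 5, 11 and 12 reads in RSL3 libraries. Summed, these are 11 reads (exact 95% Poisson interval 5.49 to 19.7) and 28 reads (18.6 to 40.5), intervals that cover counting error only. The log2 fold change was 0.97 ± 0.30 (SE, limma adjusted p = 0.10), and without RSL3 library 1 it was 1.23 and passed (adjusted p = 0.043), the only member to pass in any setting tried. At so low a level the pseudocount sets the size: it was 1.24 with 0.5 and 0.37 with 5 in place of 1, and 1.72 in edgeR and 1.79 in DESeq2.

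The guide of the second hairpin, miR-411-5p, shares 6 of the seed's bases with miR-379-5p and stood at 71.3, 44.4 and 38.6 CPM under DMSO and 53.6, 96.7 and 77.0 CPM under RSL3. As for miR-379-5p, RSL3 libraries 2 and 3 lay above every DMSO library and library 1 lay within their range. Its log2 fold change was 0.56 ± 0.24 (SE, limma adjusted p = 0.25). For miR-380-5p, from the hairpin 2 places further on, the levels were 10.0, 5.10 and 6.89 CPM and then 7.37, 16.004 and 14.4 CPM, with the same pair of libraries high. Its log2 fold change was 0.68 ± 0.30 (SE, limma adjusted p = 0.25). The 3p partners of the first hairpins were low: miR-379-3p was at 2.55 ± 0.287 and 3.84 ± 0.850 CPM and miR-411-3p, with the same seed, at 6.28 ± 1.20 and 8.29 ± 1.26 CPM. The groups did not overlap for miR-379-3p, which rested on 10 to 17 reads per library. With miR-758-3p it made up the 2 such members on the higher side, against 12.3% of all miRNAs. The log2 fold changes of these 3p partners were 0.44 and 0.35, beside 0.41 and 0.56 for their 5p partners. Neither 3p change passed (limma adjusted p = 0.37 and 0.43). At such levels the added 1 pulls a log2 fold change toward 0.

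On the lower side the smallest p belonged to miR-409-3p, from a hairpin in an intron of Mirg near the far end. It was at 51.4, 47.9 and 58.1 CPM under DMSO and 37.6, 47.7 and 35.7 CPM under RSL3. The groups just failed to overlap, with RSL3 library 2 close under DMSO library 2. The log2 fold change was -0.38 ± 0.16 (SE, limma adjusted p = 0.25). Its 5p partner stood at 33.5, 30.2 and 32.7 CPM and then 28.5, 44.2 and 32.1 CPM, on both sides of the DMSO range, with a log2 fold change of 0.09.

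**Figure D3:**
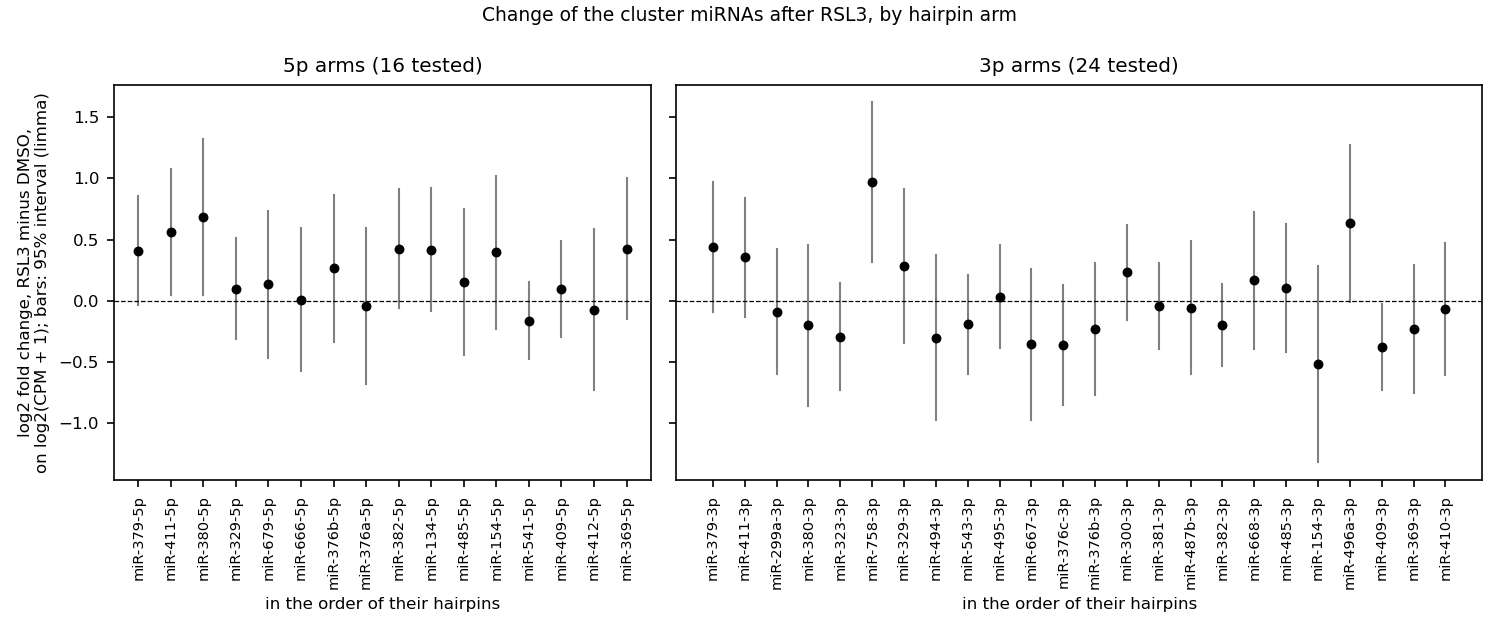
Points give the log2 fold change (RSL3 minus DMSO, on log2(CPM + 1)) of the 40 tested members, with limma's 95% interval as bars, 5p arms on the left and 3p arms on the right, both in the order of the hairpins. Of the 16 members from 5p arms 13 lie above 0, and of the 24 from 3p arms 9 do.

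Members with known neuronal roles gave small and uncertain differences. The dendritic miR-134-5p, which restrains spine growth through Limk1, stood at 14.9, 13.1 and 8.27 CPM under DMSO and 14.2, 19.8 and 14.6 CPM under RSL3, with 1 RSL3 library above and the others within the DMSO range. Its log2 fold change was 0.42 ± 0.23 (SE, limma adjusted p = 0.37), and 0.19 without DMSO library 3. For miR-485-5p, a regulator of the synaptic vesicle protein SV2A, the levels were 12.4, 6.21 and 6.49 CPM and then 7.37, 12.2 and 8.02 CPM, with 1 high library in each group. Its partner miR-485-3p was at 15.2, 8.66 and 8.86 CPM and then 10.4, 14.1 and 10.0 CPM, with the same libraries high. The log2 fold changes of this pair were 0.16 and 0.10. The activity-responsive miR-329-3p was at 15.7, 10.2 and 8.46 CPM and then 9.66, 21.97 and 12.03 CPM, and its more abundant 5p partner at 98.3, 72.6 and 94.5 CPM and then 78.8, 128 and 82.0 CPM. For both, RSL3 library 2 was highest, and the log2 fold changes were 0.28 and 0.10. The limma adjusted p-values of these 4 arms of miR-485 and miR-329 ran from 0.64 to 0.85.

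The relatives miR-543-3p and miR-495-3p, whose sequences were compared above, gave small differences that did not pass. The first was at 15.5, 16.6 and 13.8 CPM under DMSO and 11.7, 14.1 and 14.04 CPM under RSL3, a log2 fold change of -0.19. The second was at 30.4, 23.7 and 24.996 CPM and then 25.7, 34.5 and 21.9 CPM, a log2 fold change of 0.03 that was negative under several scalings. For miR-323-3p the levels were 33.4, 27.5 and 32.9 CPM and then 19.3, 33.6 and 24.7 CPM, with the pair of lowest values in RSL3 libraries and a log2 fold change of -0.29.

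The miR-376 family, known for A-to-I editing of its precursors in brain, had 4 listed arms of low level. Its most abundant, miR-376b-3p, was at 24.1, 16.2 and 24.2 CPM under DMSO and 13.5, 26.7 and 15.8 CPM under RSL3. The 5p arm, miR-376b-5p, was at 9.09, 4.88 and 9.25 CPM and then 7.62, 13.2 and 7.62 CPM. The levels of miR-376c-3p were 9.72, 7.32 and 7.68 CPM and then 5.59, 7.85 and 5.21 CPM, and those of miR-376a-5p were 1.72, 1.11 and 0.984 CPM and then 1.27, 0.628 and 1.80 CPM. Their log2 fold changes were -0.23, 0.26, -0.37 and -0.05, and none passed in limma (adjusted p = 0.66, 0.64, 0.43 and 0.95). With 1 library left out, miR-376b-3p ran from -0.51 (without RSL3 library 2) to -0.04 (without RSL3 library 1) and miR-376b-5p from 0.0011 (without DMSO library 2) to 0.40. The table counts reads by name, so edited copies are not seen in it.

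The 17 members not described one by one under the naming rule had means of 1.09 to 22.3 CPM. Their log2 fold changes ran from -0.52 (miR-154-3p) to 0.64 (miR-496a-3p), 8 positive and 9 negative, with limma adjusted p-values of 0.29 to 0.99.

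The sign of the log2 fold change differed by arm. Of 16 tested 5p members 13 had a positive log2 fold change, with a median of 0.21. Of 24 tested 3p members 9 did, with a median of -0.08. Over all tested miRNAs 139 of 294 named 5p (47.3%) and 154 of 304 named 3p (50.7%) were positive, with medians of -0.03 and 0.00419. Along the cluster, Spearman's rho between hairpin position and the mean log2 fold change of its members was -0.16 over 29 hairpins, given as a description. In the first 14 hairpins 8 had a positive mean and in the last 15 there were 7. By sequence the arms had close medians. The median GC content was 47.6% (36.4% to 68.2%) for 16 members from the 5p arm. It was 45.5% (23.8% to 66.7%) for 22 from the 3p arm, and the median length was 22 nt for both. First bases differed more: U was found in 6 of those 16 and in 12 of those 22, and G in 4 and in 1.

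The balance of the 2 arms was then compared within each hairpin, since a ratio of both arms is taken inside 1 library. It was log2((5p + 1)/(3p + 1)) in CPM, so for arms of few CPM the added 1 pulls it toward 0. Both arms were listed for 11 of 30 hairpins, 6 others had the 5p arm alone and 13 the 3p arm alone. The 5p arm was the higher one in 5 hairpins and the 3p arm in 6. The widest gaps were 230-fold in favour of miR-300-3p and 55.7-fold in favour of miR-379-5p, and the narrowest 1.28-fold in favour of miR-485-3p.

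A total of 10 hairpins could be tested, with both arms above the filter, among 182 precursors of the whole table. In limma 0 of 10 passed in either direction, against 0% of all precursors toward 5p and 2.75% toward 3p. The measured change pointed toward 5p in 8 of the 10, where 41.8% of all precursors did and 58.2% pointed toward 3p. At an unadjusted p under 0.05 there were 6 toward 5p and 0 toward 3p in the cluster, against 8.24% and 13.7% of all precursors. The groups did not overlap in 5 hairpins, all toward 5p, against 9.34% of all precursors toward 5p and 14.8% toward 3p. The median change in log2(5p/3p) was 0.48 in the cluster and -0.05 over all precursors. This is a description of the cluster's hairpins, whose adjusted p-values for single hairpins lay above the threshold, and arms of 1 hairpin share their precursor.

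The 5 hairpins with the smallest p are shown from 5′ to 3′ with the 5p and the 3p product in capitals, since the ratio compares these stretches.
miR-380: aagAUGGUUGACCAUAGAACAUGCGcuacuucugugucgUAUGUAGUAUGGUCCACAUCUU
miR-376b: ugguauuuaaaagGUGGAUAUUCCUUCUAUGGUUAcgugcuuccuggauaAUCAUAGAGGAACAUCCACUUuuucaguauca
miR-382: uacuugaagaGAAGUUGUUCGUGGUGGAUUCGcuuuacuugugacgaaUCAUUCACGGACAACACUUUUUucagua
miR-409: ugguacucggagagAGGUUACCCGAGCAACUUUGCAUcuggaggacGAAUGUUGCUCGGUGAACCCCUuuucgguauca
miR-369: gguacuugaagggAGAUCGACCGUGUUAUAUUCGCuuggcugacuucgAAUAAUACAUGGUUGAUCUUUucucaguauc
They lie on the plus strand of chromosome 12 at 109711803 to 109711863 (miR-380) and 109723458 to 109723539 (miR-376b), upstream of the Mirg model. Within it are 109733771 to 109733846 (miR-382, at an exon's edge), 109743158 to 109743236 (miR-409, intron) and 109743418 to 109743496 (miR-369, at an exon's edge).

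For miR-382 the log2 ratio of 5p to 3p was -2.31, -2.60 and -3.01 in DMSO and -2.27, -2.03 and -1.76 in RSL3 libraries, so the 3p arm stayed the higher one everywhere. All RSL3 values lay above all DMSO values, though RSL3 library 1 was close to DMSO library 1. The change was 0.62 ± 0.23 (SE, limma adjusted p = 0.15). The levels of miR-382-3p are given above, and those of miR-382-5p were 27.6, 18.6 and 16.7 CPM under DMSO and 21.4, 34.5 and 29.3 CPM under RSL3. Both arms of this hairpin rest on at least 84 reads in every library.

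For miR-409 the log2 ratio was -0.60, -0.65 and -0.81 in DMSO and -0.39, -0.11 and -0.15 in RSL3 libraries. The groups were apart in every library, and the change was 0.47 ± 0.17 (SE, limma adjusted p = 0.15), with both arms above 100 reads throughout. For miR-376b the log2 ratio was -1.32, -1.55 and -1.30 and then -0.75, -0.96 and -0.97, again apart in every library. Its change was 0.50 ± 0.18 (SE, limma adjusted p = 0.15), or 0.52 and 0.37 with a pseudocount of 0.5 and 5. Its 5p arm rested on 22 to 58 reads per library.

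The other 2 of the 5 hairpins have an arm of still fewer reads, 7 to 28 for miR-380-3p and 10 to 25 for miR-369-5p. For miR-380 the log2 ratio was 1.47, 0.50 and 0.28 in DMSO and 1.59, 1.74 and 1.57 in RSL3 libraries, where DMSO library 1 came close to the RSL3 values. The change was 0.89 ± 0.29 (SE, limma adjusted p = 0.15), and without DMSO library 1 it was 1.25 and passed (adjusted p = 0.035), the only cluster hairpin to pass in any setting tried. With a pseudocount of 0.5 or 5 in place of 1 the change was 0.95 or 0.60. For miR-369 the log2 ratio was -2.37, -2.82 and -2.37 and then -2.22, -2.02 and -1.35, with a change of 0.66 ± 0.25 (SE, limma adjusted p = 0.16), or 0.72 and 0.42 with these pseudocounts. The low arms, miR-380-3p and miR-369-5p, were at 3.94 ± 1.37 and 3.36 ± 0.986 CPM under DMSO and 3.36 ± 1.37 and 4.83 ± 1.28 CPM under RSL3.

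The other 5 tested hairpins overlapped between groups. For miR-154 the change was 0.91 ± 0.39 (SE, limma adjusted p = 0.21). The log2 ratio was highest in RSL3 library 3, at 2.28 against 1.25 and 0.41 in the other RSL3 libraries. In RSL3 library 3 miR-154-3p rested on only 2 reads, or 0.401 CPM. The changes were 0.21 for miR-411, 0.05 for miR-485, -0.03 for miR-379 and -0.18 for miR-329. The hairpins at the very start, miR-379 and miR-411, thus had higher means for both arms in RSL3 libraries. Their changes in balance did not pass in limma (adjusted p = 0.95 and 0.64).

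**Figure D4:**
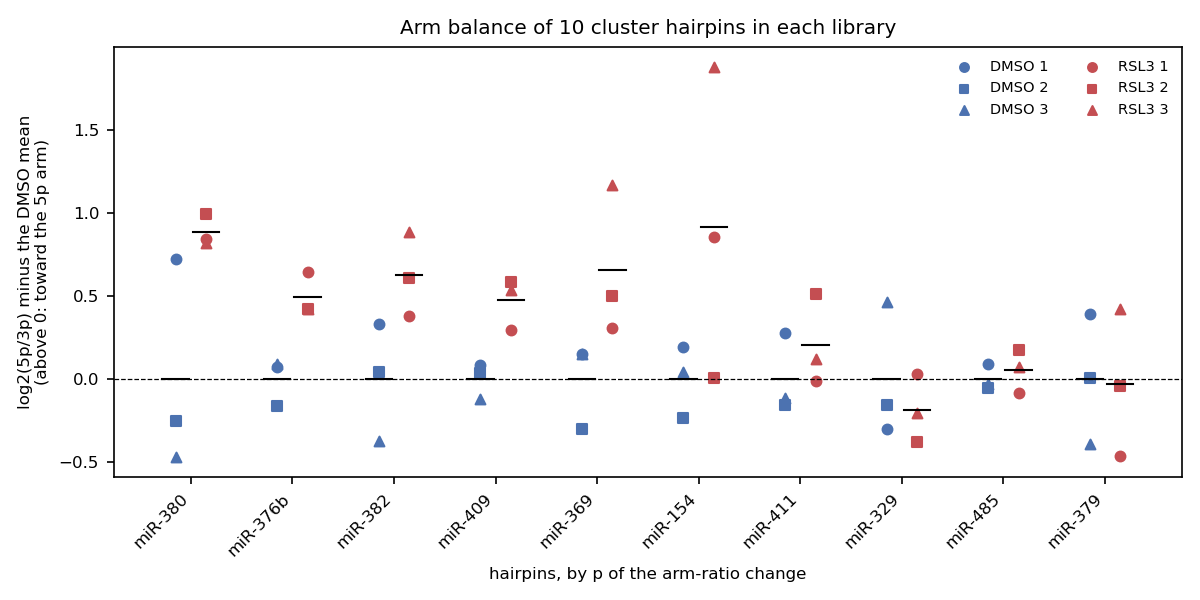
The log2 ratio of the 5p to the 3p arm, less its mean in DMSO libraries, is given for each library in 10 cluster hairpins (points), with group means as black lines. In miR-380, miR-376b, miR-382, miR-409 and miR-369 all RSL3 points lie above all DMSO points, and the other 5 hairpins overlap.

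The level of the cluster differed between libraries of the same group more than between groups. Of the 41 members 27 were highest in RSL3 library 2, where 26.1% of all tested miRNAs had their highest value. No member was lowest in DMSO library 1, which had the second highest cluster sum. These 2 libraries had the fewest and the most reads of the 6, at 3406276 and 6058006. In order of falling read number the 6 cluster sums were 3778, 3453, 3063, 2800, 2823 and 4278 CPM, so the sum mostly fell with depth except in RSL3 library 2, and the part of depth was not tested. The members' median log2 fold change was -0.07 without RSL3 library 2 and -0.04 without DMSO library 2, and 0.01 to 0.19 when any other library was left out. Its sign thus rested on those 2 libraries.

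The 18 other miRNAs of the same imprinted domain, from the Meg3 and Rtl1-antisense side upstream, showed the same order of libraries. Their summed level was 4435, 3399 and 4055 CPM under DMSO and 3492, 5202 and 4006 CPM under RSL3, with RSL3 library 2 again the highest. The sum of the cluster divided by theirs was 0.852, 0.824 and 0.851 in DMSO and 0.808, 0.822 and 0.764 in RSL3 libraries, with each RSL3 value below each DMSO value, RSL3 library 2 only just. Without miR-381-3p and miR-127-3p, which lead the 2 sums, the ratio was 1.41, 1.38 and 1.23 and then 1.38, 1.41 and 1.38, and the groups overlapped. Their most abundant member, miR-127-3p, which lies antisense to Rtl1, was at 3102 ± 416 and 3338 ± 681 CPM (log2 fold change 0.10, limma adjusted p = 0.76). For miR-136-3p the levels were 159 ± 27.6 and 152 ± 29.0 CPM, and for miR-341-3p 150 ± 18.6 and 143 ± 32.2 CPM. For miR-434-5p they were 131 ± 13.8 and 178 ± 37.3 CPM, with a log2 fold change of 0.43 ± 0.16 (SE, limma adjusted p = 0.17), the smallest p of this list. In limma 0 of 18 passed, with 1 higher and 1 lower at an unadjusted p under 0.05, and edgeR and DESeq2 called 0 (smallest adjusted p = 0.15 and 0.074). Their median log2 fold change was -0.10, with 6 positive and 12 negative. Of their 6 hairpins with both arms, 4 had a change toward 5p, with a median of 0.13, and 0 passed in limma either over all precursors or at an unadjusted p under 0.05.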

How the data were processed

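Small RNA libraries of 15 to 35 nt inserts, 3 per group, were read for 50 cycles, per the labels. The submitters' processing notes name cutadapt, Bowtie, edgeR and GRCm38, with no version, setting or miRNA release. In each library 100% of the deposited signal values, which the authors call CPM, came out whole when divided by 1 common step (tolerance 0.01), so reads were recovered. The step matched CPM over the listed reads times edgeR's TMM factor (0.936 to 1.05), so the values are TMM-scaled CPM. Replicates differed beyond counting noise (chi-square per degree of freedom 68.4 to 234).

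Log2(CPM + 1) was tested with limma 3.58.1 (R 4.3.3; variance trend, two-sided, Benjamini-Hochberg over all 666 miRNAs with at least 1 CPM in 3 libraries). Arm ratios, log2((5p + 1)/(3p + 1)), were tested the same way over 182 precursors. EdgeR 4.0.16 and DESeq2 1.42.0 were alternatives on the recovered reads. Per-library values are given for the 12 most abundant members, those at an unadjusted p under 0.05, those of at least 10 CPM whose groups do not overlap, and the miR-376, miR-300, miR-381, miR-329, miR-543, miR-134, miR-485 and miR-541 arms. Members and lists were chosen with earlier results of these data known. Names not under this rule (miR-154-3p, miR-496a-3p, miR-379-3p, miR-411-3p, miR-410-3p and those sharing seeds) were added after the values were seen.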

Additional observations from a re-analysis of the deposited data

How the results depend on the processing

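Centring on the cluster's median and the variance trend over arm level were chosen after seeing the data. With 1 library removed, 0 to 1 cluster miRNAs passed as higher (miR-758-3p without RSL3 replicate 1) and 0 to 1 cluster hairpins had a changed ratio (miR-380 without DMSO replicate 1). In all other settings both counts stayed at 0, as did the cluster miRNAs called lower in every setting. The whole table moved more. For its higher calls (4) plain CPM gave 2, a fit with no variance trend 1, the replicate block 1, cluster centring 1, DESeq2 17 and removal of a library 1 to 14. For its lower calls (1) the 10 CPM filter gave 3, median centring 0, rescaling by all but the 5 top miRNAs 12, no variance trend 0, the replicate block 0, cluster centring 0, edgeR 2, DESeq2 19 and removal of a library 0 to 12. For its arm ratios (5) a pseudocount of 0.5 gave 2, one of 5 gave 11, a robust trend 2, the replicate block 2, the trend over arm level 3 and removal of a library 0 to 6. What caused these shifts was not tested. Same-numbered libraries did not deviate together (r = -0.35, -0.33 and -0.19). These are deviations from means of 3 libraries, so they cannot settle whether libraries of the same number were prepared together. The replicate block called 0 cluster miRNAs.

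Of 478 values of the 23 named and tested cluster miRNAs under other settings, 24 changed sign, in 9 miRNAs, and 1 newly passed. The other filters, no variance trend, a robust trend, the replicate block and same-read entries counted once leave a log2 fold change as it was. Their values are among the 478, so part of these signs was fixed in advance. Under quantile normalization the log2 fold change was 0.015 for miR-381-3p and 0.00684 for miR-376a-5p. For miR-495-3p it was -0.017 after rescaling by all but the 5 top miRNAs, -0.027 in plain CPM and -0.052 with cluster centring. With 1 library removed, the range was -0.225 to 0.0678 for miR-381-3p, -0.000667 to 0.360 for miR-300-3p and -0.124 to 0.225 for miR-329-5p. It was -0.0842 to 0.225 for miR-409-5p, -0.142 to 0.176 for miR-495-3p and -0.0372 to 0.517 for miR-329-3p. It was -0.0419 to 0.345 for miR-485-3p, -0.0469 to 0.443 for miR-485-5p and -0.227 to 0.165 for miR-376a-5p. Of 67 arm-ratio values of the named hairpins 0 changed sign. These 5 were picked for the smallest p, and their groups did not overlap. Removing a library or changing the variance model could therefore not change their sign. Among the other tested hairpins the change ran from -0.255 to 0.187 for miR-379 over all settings. It ran from -0.335 to 0.0456 for miR-329 and from -0.00501 to 0.123 for miR-485, while miR-411 and miR-154 kept their sign. Depth limits members under 10 CPM, where a few reads set the value.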
